A study of Mus musculus with 13 samples.

Results

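The gliogenic transcription factors described here are 10 genes, Sox9, Sox2, Nfia, Nfib, Nfix, Zbtb20, Rorb, Lhx2, Fezf2 and Rfx4, listed by name and not by any measured value. All 10 were found by symbol among the 39171 genes of the deposited expression table. That table holds RNA sequencing of glial cells sorted from spinal cords of C57BL/6 mice that lacked Il33 (KO) or were wild-type littermates (WT). Il33 codes for interleukin-33, an IL-1 family cytokine that astrocytes make. Astrocytes were identified by a green fluorescent reporter of Aldh1l1, an astrocyte gene, and microglia, which are tissue macrophages, by CD11b on their surface. There were 4 libraries of KO astrocytes, 3 of WT astrocytes, 3 of KO microglia and 3 of WT microglia. All microglia came from postnatal day 12 (P12). KO astrocytes 2 and WT astrocytes 3 came from postnatal day 9 (P9) and the other 5 astrocyte libraries from P12. The replicates are biological, per the series' design text, and whether animals were pooled is not given in the sources used here.

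Gliogenic factors are the proteins that turn neural stem cells of the embryo from making neurons to making glia and that many astrocytes keep after birth. SOX9 opens this switch in the spinal cord and turns on NFIA, with which it forms a complex at astrocyte genes. The nuclear factor I (NFI) family binds DNA as dimers of 4 related proteins, and RFX4, ZBTB20, RORB, LHX2 and FEZF2 are factors of radial glia, cortex or forebrain with their own regional roles. RNA levels were compared between astrocytes and microglia, between genotypes and between ages.

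Levels are FPKM, fragments per kilobase of transcript and of library size, so that they can be set side by side between genes. Read numbers are unknown. From the spacing of low values, the astrocyte libraries had roughly 33.8% to 62.8% and the microglia libraries 68.1% to 100% of the depth of KO microglia 2. This estimate is weak, since its mode held only 18 to 39 of 1142 to 1721 genes used in astrocyte libraries. In the microglia libraries other than KO microglia 2 it held 22 to 76 genes. Il33, the targeted gene, stood at 96.3, 113 and 108 FPKM in WT astrocytes and at 2.28, 2.05, 0.424 and 0.733 in KO astrocytes. The summed level of 12 astrocyte markers was 9566 to 17887 FPKM in the astrocyte libraries and 97.5 to 164 in the microglia libraries. For 10 microglia markers the sums were 36.2 to 77.7 FPKM in astrocytes and 7670 to 8298 in microglia. The astrocyte libraries also held 4551 to 8184 FPKM over 10 oligodendrocyte markers, most of it Mbp (2654 to 5997 FPKM). The microglia libraries held 1073 to 2645 FPKM over the same markers. Oligodendrocyte precursor markers, 7 genes, had library medians of 7.36 to 22.5 FPKM in astrocytes and 4.48 to 17.5 in microglia. Within-group correlations on the log2(FPKM + 1) scale reached down to 0.867 in astrocytes and to 0.760 in microglia, the latter between WT libraries.

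In the astrocytes, 8 of the 10 factors were well above background and 2, Lhx2 and Fezf2, were at or next to 0. NFI genes led the list. Nfix (chromosome 8, 84699876 to 84800344, GRCm38), an NFI family member, had the highest level, at 883, 967, 582 and 642 FPKM in KO astrocytes 1 to 4 and at 712, 842 and 817 FPKM in WT astrocytes 1 to 3. Nfia (chromosome 4, 97772734 to 98118874), the partner of SOX9, stood at 428, 591, 457 and 399 FPKM in KO and at 404, 542 and 521 FPKM in WT. Nfix was above Nfia in 7 of 7 libraries, although the ranges of the pair touched. Zbtb20 (chromosome 16, 42875881 to 43642602), a zinc finger repressor that promotes astrocyte formation, held 156 to 186 FPKM in KO and 92.4 to 161 in WT astrocytes. Sox9 (chromosome 11, 112782224 to 112787760) held 83.0, 121, 101 and 95.6 FPKM in KO astrocytes and 89.6, 124 and 97.8 FPKM in WT. It was below Zbtb20 in 6 of 7 libraries and above Nfib in 7 of 7. Nfib (chromosome 4, 82290173 to 82705750), another NFI gene, ranged from 73.3 to 107 FPKM.

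The remaining expressed members formed a lower tier whose order was not resolved. Rfx4 (chromosome 10, 84756062 to 84906538), a winged-helix factor of neural progenitors, ranged from 50.9 to 72.2 FPKM. Sox2 (chromosome 3, 34650405 to 34652461), a stem cell factor that astrocytes retain, ranged from 35.3 to 73.3 FPKM. Rorb (chromosome 19, 18930605 to 19111196), an orphan nuclear receptor, ranged from 43.0 to 65.5 FPKM. Rfx4 exceeded Sox2 in 4 of 7 libraries and Sox2 exceeded Rorb in 4 of 7, so these neighbours did not differ beyond their spread. All 8 varied less between astrocyte libraries than the median gene of at least 10 FPKM. Genes of a like level were not compared, so the part of level in this was not tested. Their coefficients of variation over the 7 libraries ran from 14.0% for Nfib to 22.4% for Zbtb20, and the median over 6396 genes of at least 10 FPKM was 28.4%.

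**Figure D1:**
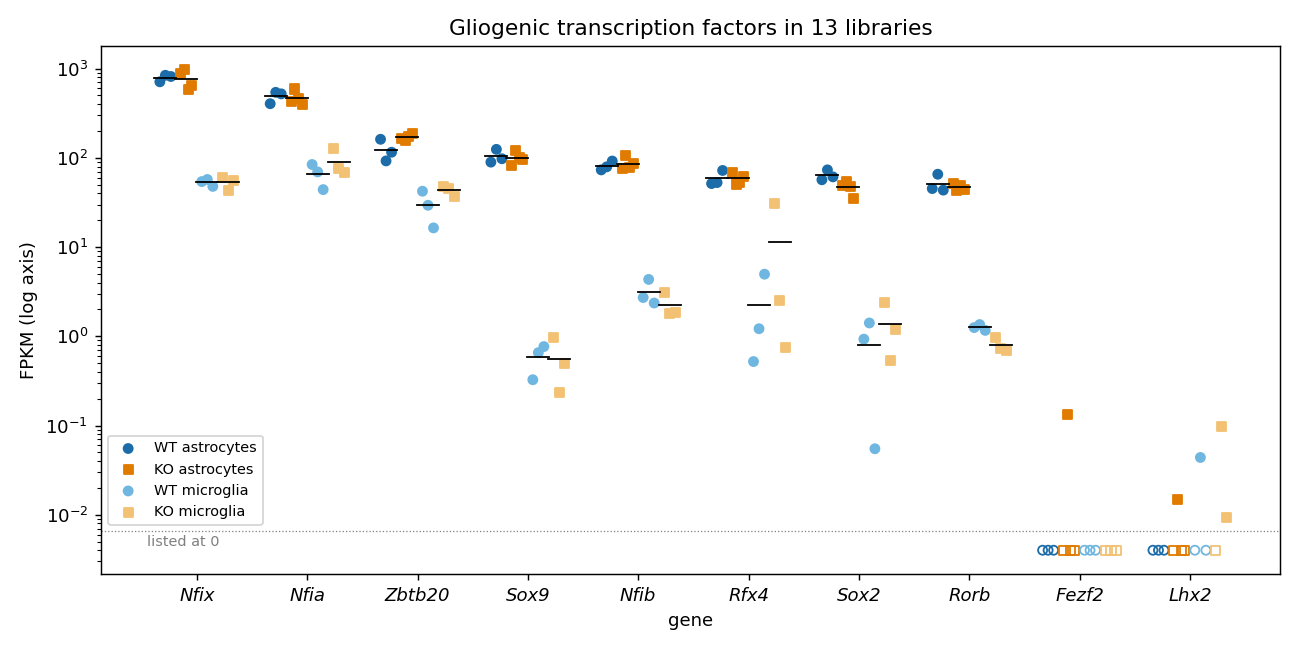
FPKM of the 10 gliogenic factors in each of the 13 libraries, on a logarithmic axis, with a colour for each of the 4 groups, lines at group means and open symbols for values listed at 0. For the 8 expressed factors every astrocyte point lies above every microglia point, and Nfix and Nfia are the highest in astrocytes.

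Lhx2 and Fezf2 were not found in these cells at a level that could be compared. Lhx2, a LIM homeodomain factor of the forebrain and eye (chromosome 2, 38339281 to 38369733), was listed at 0 in 6 of 7 astrocyte libraries and at 0.0149 FPKM in KO astrocytes 2. In microglia Lhx2 stood at 0, 0.0965 and 0.00926 FPKM in KO and at 0, 0.0438 and 0 FPKM in WT. Fezf2, a zinc finger factor of the forebrain and of deep-layer cortical neurons (chromosome 14, 12342094 to 12348189), was listed at 0 in every library except KO astrocytes 2, at 0.133 FPKM. Both genes stayed under the filter of a mean of 1 FPKM and entered no limma fit. For Lhx2 in microglia the exact permutation test between genotypes gave p = 0.7. Emx2, another forebrain gene, did not exceed 0.593 FPKM in any astrocyte library. A listed 0 is not always absence in this table, since the glutamate transporter gene Slc1a2 was listed at 0 in KO astrocytes 3 and WT astrocytes 1 and at 1631 to 3996 FPKM in the other 5. Of 5894 genes whose median over the astrocyte libraries exceeded 10 FPKM, 100 were listed at 0 in at least 1 of them.

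The start regions of these 2 unexpressed genes are shown beside that of Sox2, which was expressed, with CpG dinucleotides in capitals, because all 3 hold more of them than most promoters. Each line holds the 250 bases upstream of a RefSeq start (GRCm38.p6), 5′ to 3′ on the strand of the gene.
Sox2, chr3:34649745-34649994, plus strand: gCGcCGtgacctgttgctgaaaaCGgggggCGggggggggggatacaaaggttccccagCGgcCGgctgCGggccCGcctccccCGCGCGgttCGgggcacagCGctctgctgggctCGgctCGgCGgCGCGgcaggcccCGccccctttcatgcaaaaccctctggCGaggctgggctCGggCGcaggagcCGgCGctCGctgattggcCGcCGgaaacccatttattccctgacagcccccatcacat
Lhx2, chr2:38339031-38339280, plus strand: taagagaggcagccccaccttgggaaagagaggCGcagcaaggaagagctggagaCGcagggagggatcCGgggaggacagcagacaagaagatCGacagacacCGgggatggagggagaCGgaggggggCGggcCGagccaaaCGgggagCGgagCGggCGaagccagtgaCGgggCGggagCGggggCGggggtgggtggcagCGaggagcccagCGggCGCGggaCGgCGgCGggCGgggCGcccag
Fezf2, chr14:12345866-12346115, minus strand: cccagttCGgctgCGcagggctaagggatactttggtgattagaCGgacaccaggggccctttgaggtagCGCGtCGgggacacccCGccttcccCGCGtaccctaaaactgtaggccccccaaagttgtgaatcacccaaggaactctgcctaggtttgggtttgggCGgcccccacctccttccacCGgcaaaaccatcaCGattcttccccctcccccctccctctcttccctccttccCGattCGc
Sox2 has 27 CpG in this window, Lhx2 25 and Fezf2 14, where the median over 32851 mouse promoters of this length is 6. At least as many were found in 8.56% of promoters for Sox2, in 10.7% for Lhx2 and in 29.4% for Fezf2. Sox2 was chosen for its CpG-rich window, and not all windows of the expressed members share that feature. Nfia has 1 CpG in its window and Zbtb20 3, while the windows of Nfix hold 1 to 11, those of Rfx4 2 and 15 and those of Rorb 4 and 18. Not every RefSeq start is that of the annotated gene, so these counts do not set expressed against unexpressed members. The window of Nfia (97581693 to 97581942) lies ahead of the gene, and those of Zbtb20 (43247034 to 43247283), Nfix and Fezf2 lie inside theirs. The windows of Rfx4 with 15 CpG and of Rorb with 18 lie next to the annotated start. Of 14 member starts, 8 were followed by bases found in an annotated transcript in the same direction. Promoters were matched for 8 of the 10 members, and Sox9 and Nfib had no entry in the table used.

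In both genotypes, all 8 expressed factors were higher in astrocytes than in microglia. Sox9 showed the widest separation and Zbtb20 the narrowest. This comparison takes each member's RNA in microglia as the reference for its level in astrocytes. Among the 16258 genes tested, 24.5% were called higher in WT astrocytes than in WT microglia and 25.1% in KO, at a limma adjusted p under 0.05. The 8 tested members were called in both. The filter took the mean over all 13 libraries, and Sox9 was under 1 FPKM in every microglia library. Sox9 thus entered through its astrocyte values, and its direction was set by the filter. The other 7 reached the filter in microglia alone. Over all 8 members, Sox9 included, the median log2 difference was 4.32 in WT and 4.05 in KO. The medians over all genes tested were −0.21 and −0.24. In bulk samples of this kind, fewer cells of a type and less RNA per cell cannot be told apart. The split of all calls depended on the scaling. In WT, 3980 genes were higher and 4737 lower, and in KO 4073 and 5181. Quantile normalisation moved the medians of all genes to 0.06 and 0.08 and gave 4930 higher and 3764 lower in WT, and 5160 and 4083 in KO. The direction and the call of the 8 members held under each scaling, filter, pseudocount and left-out library tried.

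The SOX factors were low in microglia, and Sox9 had the lowest mean of the 8 expressed factors there. By mean level the microglial order was Nfia, Nfix, Zbtb20, Rfx4, Nfib, Sox2, Rorb and Sox9, where Rfx4 exceeded Nfib, and Sox2 exceeded Rorb, in only 3 of 6 libraries. Sox9 held 0.326, 0.655 and 0.767 FPKM in WT microglia and 0.959, 0.233 and 0.497 FPKM in KO microglia. No microglia library reached 1 FPKM, and the lowest astrocyte library held 83.0. The mean in astrocytes was 178 times that in microglia in WT, with a limma log2 difference of 6.00 (SE 0.25, adjusted p = 1.83e-08), and 178 times in KO (log2 difference 5.99, SE 0.23, adjusted p = 8.14e-09). Sox2 held 0.929, 1.41 and 0.0549 FPKM in WT microglia and 2.41, 0.532 and 1.20 FPKM in KO microglia. Its astrocyte mean was 79.9 times the microglial mean in WT (limma log2 difference 5.20, SE 0.38, adjusted p = 1.03e-06) and 33.7 times in KO (4.35, SE 0.35, adjusted p = 1.80e-06). Differences on the log2(FPKM + 1) scale understate the change of genes this low. As a share of the mean over the astrocytes, Sox9 in microglia ranged from 0.229% to 0.943%, and 11 astrocyte markers had library medians of 0.443% to 1.42%. In KO microglia 2 (0.229%) and WT microglia 1 (0.320%) Sox9 was below each of the 11 markers, whose lowest values there were 0.346% and 0.361%. The gene body of Sox2 lies inside the long noncoding gene Sox2ot on the same strand, with no shared exonic base in the annotation.

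The NFI genes were high in astrocytes and, except for Nfib, clearly present in microglia. Nfia held 84.2, 69.6 and 44.1 FPKM in WT microglia and 126, 75.1 and 69.3 FPKM in KO microglia. The astrocyte mean of Nfia was 7.42 times the microglial mean in WT (limma log2 difference 2.80, SE 0.30, adjusted p = 1.77e-05) and 5.20 times in KO (2.32, SE 0.27, adjusted p = 3.41e-05). Nfix was even between microglia libraries, at 54.2, 57.2 and 47.9 FPKM in WT and 60.3, 42.7 and 56.1 FPKM in KO. Its astrocyte mean was 14.9 times higher in WT (limma log2 difference 3.77, SE 0.22, adjusted p = 1.87e-07) and 14.5 times in KO (3.74, SE 0.20, adjusted p = 8.82e-08). Nfib stood apart from both, with 2.72, 4.34 and 2.36 FPKM in WT microglia and 3.08, 1.81 and 1.84 FPKM in KO microglia. The ratio of means for Nfib was 26.0 in WT (limma log2 difference 4.22, SE 0.23, adjusted p = 1.30e-07) and 38.5 in KO (4.67, SE 0.21, adjusted p = 2.94e-08). The labels do not say if strand was kept, so reads of overlapping genes cannot be assigned with certainty. Nfix shares 137 of its 7351 exonic bases with G430095P16Rik on the other strand (102 FPKM on average in astrocytes and 10.8 in microglia). It shares 4 bases with Lyl1 (0.196 and 68.5 FPKM), and the part of either in the Nfix values was not tested.

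The makeup of the NFI family differed between the cell types. Nfic, the fourth family gene and not a member of the list, held 58.9 to 99.1 FPKM in astrocytes and 52.6 to 81.2 FPKM in microglia. It did not pass the test in WT (limma log2 difference 0.54, SE 0.23, adjusted p = 0.0715) or KO (0.17, SE 0.21, adjusted p = 0.516). The 4 genes summed to 1425 ± 206 FPKM in astrocytes (SD, n = 7) and 202 ± 37.4 FPKM in microglia (SD, n = 6). Of this sum Nfix took 54.4% ± 3.52 in astrocytes and 26.6% ± 3.67 in microglia, and the ranges did not overlap. Nfic took 6.05% ± 1.33 in astrocytes and 34.2% ± 4.05 in microglia, also without overlap. Nfib took 5.96% ± 0.738 and 1.35% ± 0.468, again without overlap. Nfia had a like share in both, 33.6% ± 2.72 and 37.8% ± 6.53, with overlapping ranges. These shares are given without a test.

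**Figure D2:**
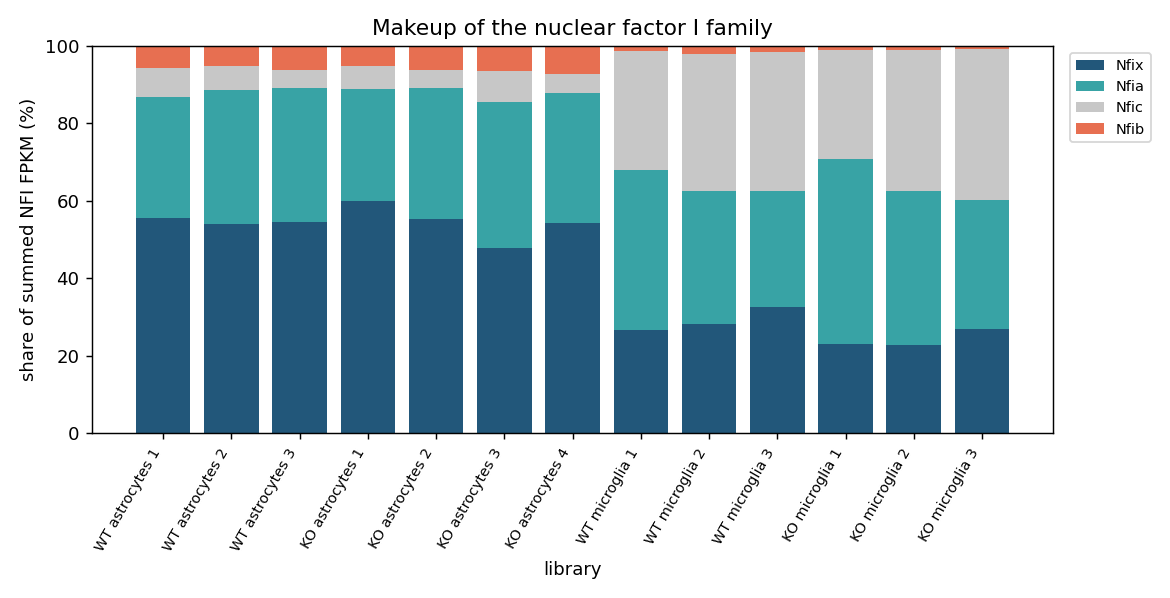
Share of the summed FPKM of Nfia, Nfib, Nfic and Nfix taken by each gene in each of the 13 libraries, in percent, as stacked bars. Nfix fills 47.9% to 59.9% of the bar in astrocytes and 22.7% to 32.6% in microglia, where Nfic fills 27.9% to 39.0%.

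Zbtb20 was the member that microglia held most of relative to astrocytes. It stood at 42.3, 29.4 and 16.4 FPKM in WT microglia and at 47.8, 45.5 and 36.9 FPKM in KO microglia. In microglia it amounted to 10.9% to 31.8% of its astrocyte mean, with a median of 26.4%. The astrocyte to microglia ratio of Zbtb20 was 4.19 in WT (limma log2 difference 2.13, SE 0.33, adjusted p = 0.000279) and 3.93 in KO (1.99, SE 0.30, adjusted p = 0.000237). Rorb was low in microglia, at 1.25, 1.35 and 1.16 FPKM in WT and 0.980, 0.730 and 0.701 FPKM in KO. For Rorb the limma log2 difference was 4.59 in WT (SE 0.19, adjusted p = 2.18e-08) and 4.79 in KO (SE 0.18, adjusted p = 7.38e-09).

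Rfx4 was uneven among the microglia libraries, and 1 library set its mean there. It stood at 31.1 FPKM in KO microglia 1, at 2.52 and 0.754 FPKM in KO microglia 2 and 3, and at 0.521, 1.22 and 4.97 FPKM in WT microglia. KO microglia 1 thus held 52.9% of the astrocyte mean of Rfx4, where its median over the 11 astrocyte markers was 0.889% and its highest marker, Slc1a3, was at 5.32%. The marker Aldh1l1 stood at 0.642 FPKM in that library and at 78.4 FPKM or more in each astrocyte library. Some genes of other lists were high in KO microglia 1 too, and their part in the Rfx4 value was not tested. Foxj1, a factor of ciliated ependymal cells, was at 0.640 FPKM there (18.5% of its astrocyte mean) and at 0 to 0.0844 FPKM in the other 5 microglia libraries. Hes5, a Notch effector gene, was at 2.70 FPKM there (12.1%) and at 0 to 0.0890 FPKM in the others. The 8 ependymal markers summed to 8.31 FPKM in KO microglia 1 and to 0.652 to 7.54 in the others, and 4 of them, Rsph1, Tmem212, Pifo and Dynlrb2, were at 0 there. The limma log2 difference between astrocytes and microglia for Rfx4 was 4.42 in WT (SE 0.93, adjusted p = 0.00226) and 3.33 in KO (SE 0.86, adjusted p = 0.00694). Without KO microglia 1 the KO difference was 4.56 (limma adjusted p = 6.51e-05), and the ratio of means went from 5.13 to 35.9. The same library was also the highest of the 6 microglia libraries for Sox9, Sox2, Nfia, Nfix and Zbtb20.

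**Figure D3:**
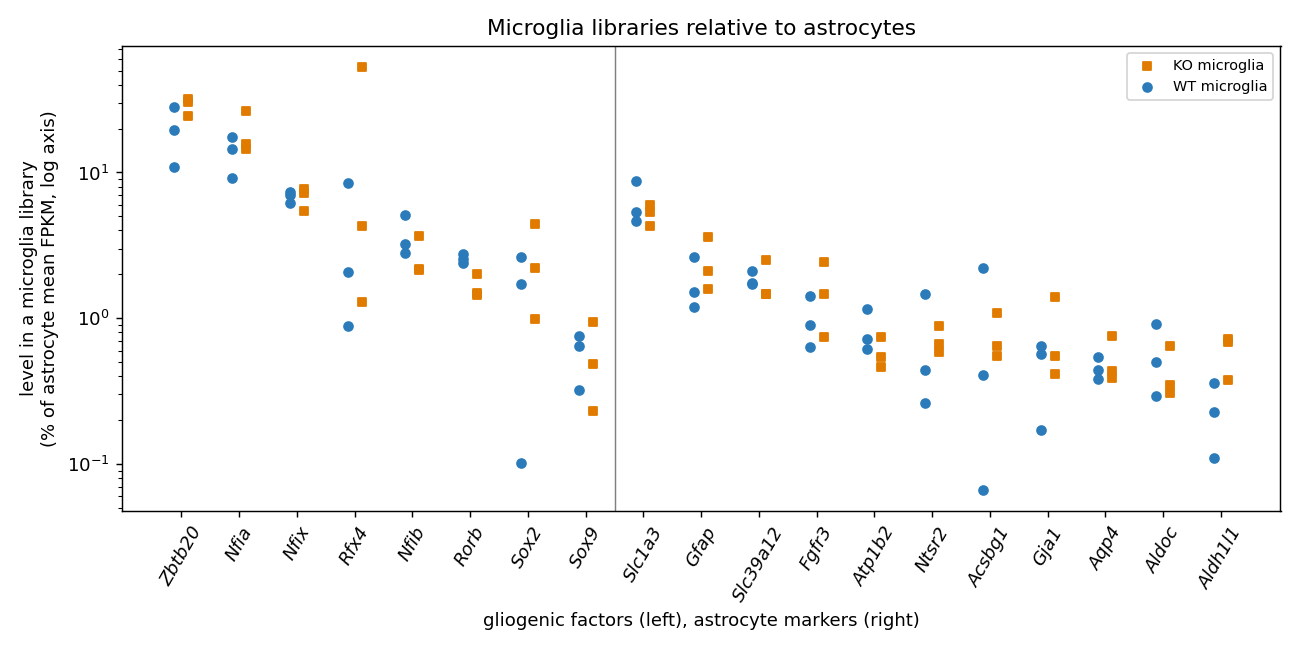
Level of each gene in each of the 6 microglia libraries as a percentage of its mean over the 7 astrocyte libraries, on a logarithmic axis, for the 8 expressed factors (left) and 11 astrocyte markers (right). Zbtb20 spans 10.9% to 31.8% and Nfia 9.22% to 26.4%, Sox9 lies under 1%, and Rfx4 in KO microglia 1 stands apart at 52.9%.

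None of the 8 factors passed the test between KO and WT astrocytes. Sox2 was the 1 member whose groups did not overlap, lower in KO, and Zbtb20 had the largest difference in the other direction. This comparison asks whether astrocytes that lack Il33 differ in these transcripts. Among 13397 genes tested with age as a covariate, 3 were called by limma (0.0224%), and 0 of the 8 members. At an unadjusted p under 0.05 there were 561 genes (4.19%) and 0 members. The median difference of the members was −0.04, and that of all genes 0.00. Sox2 held 48.6, 54.3, 48.1 and 35.3 FPKM in KO astrocytes, a mean of 46.6 ± 8.03 (SD, n = 4), and 56.8, 73.3 and 61.2 FPKM in WT astrocytes, a mean of 63.8 ± 8.55 (SD, n = 3). Every KO library lay below every WT library. Such separation in either direction was found in 627 genes (4.68%), and with KO lower in 2.36%. The log2 difference of Sox2 was −0.44 (SE 0.20, 95% interval −0.93 to 0.04, limma adjusted p = 0.921), and the exact two-sided permutation test of FPKM gave p = 0.0571, where 0.0286 is the smallest possible. Over the alternatives the difference ran from −0.56 to −0.29, with limma adjusted p from 0.722 to 0.996.

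Zbtb20 held 167, 156, 174 and 186 FPKM in KO astrocytes, a mean of 171 ± 12.7 (SD, n = 4), and 161, 92.4 and 116 FPKM in WT, a mean of 123 ± 35.1 (SD, n = 3). WT astrocytes 1 lay inside the KO range, and the other WT libraries lay below it. The log2 difference was 0.49 (SE 0.21, 95% interval −0.0040 to 0.98, limma adjusted p = 0.921), and the exact permutation p was 0.0571. Left-out libraries moved the difference of Zbtb20 between 0.24 and 0.72. The other members had differences nearer to 0. Sox9 averaged 100.1 ± 15.6 FPKM in KO (SD, n = 4) and 104 ± 18.2 in WT (SD, n = 3), a log2 difference of −0.04 with a 95% interval from −0.49 to 0.41. The corresponding differences were −0.04 for Nfia (−0.41 to 0.33), 0.10 for Nfib (−0.24 to 0.44) and −0.04 for Nfix (−0.50 to 0.41). For Rorb the value was −0.13 (−0.58 to 0.31) and for Rfx4 0.01 (−0.47 to 0.49). Changes within these intervals could not be detected with these libraries. Markers of other cells also varied between the astrocyte libraries, and their part in the values of Sox2 and Zbtb20 was not tested. Oligodendrocyte markers summed to 5743 to 8184 FPKM in KO and 4551 to 6298 in WT, oligodendrocyte precursor markers to 498 to 616 and 428 to 531, and neuron markers to 60.8 to 335 and 35.1 to 101. These sums overlapped, but the precursor sum is mostly Olig1, and the median precursor marker was 10.2 to 22.5 FPKM in KO and 7.36 to 9.02 in WT, without overlap. Of the precursor markers 6 of 7 tested had positive differences (KO minus WT, median 0.62), as did 8 of 8 neuron markers (median 0.65). Of 6 tested endothelial and mural markers, 1 had a positive difference (median −0.70), and 3 had an unadjusted p under 0.05. Cldn5, a tight junction gene of endothelium, was at 0.351 to 5.20 FPKM in KO and 6.93 to 27.4 in WT, and Flt1, a VEGF receptor gene, at 2.13 to 6.06 and 7.68 to 11.4. Limma called 0 genes of these lists. None of the 8 members, and none of the list of other gliogenic factors or SOX9 and NFI targets, stands in the authors' deposited table of 10 genes for astrocytes.

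**Figure D4:**
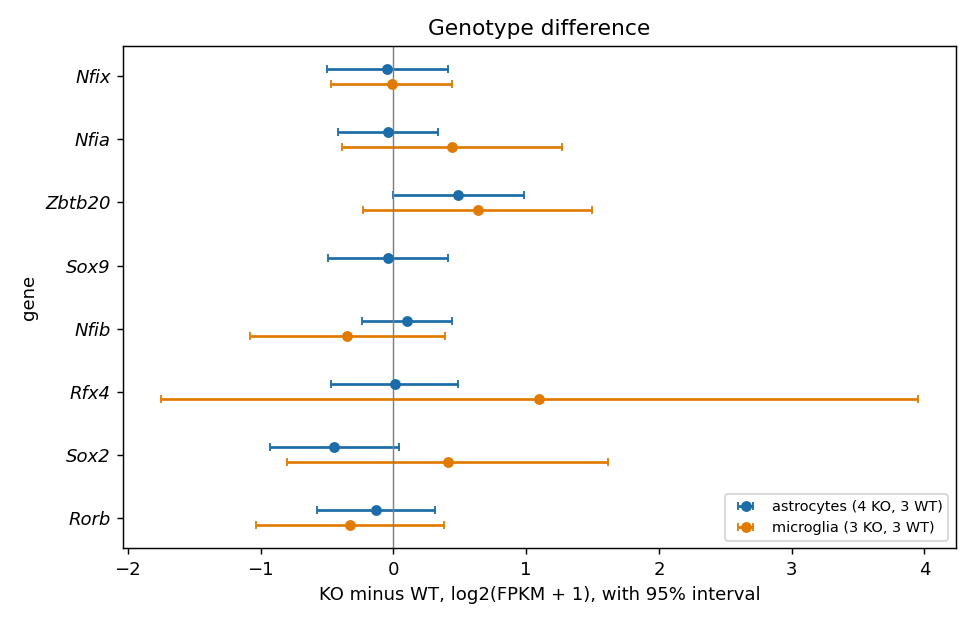
Log2(FPKM + 1) difference, KO minus WT, of each expressed member in astrocytes and in microglia, with 95% intervals from limma (Sox9 was not tested in microglia). All intervals include 0, with Sox2 (−0.44) and Zbtb20 (0.49) farthest from 0 in astrocytes.

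Nor did any member pass the test between KO and WT microglia. Of 15889 genes tested there, limma called 13 (0.0818%), and 0 of the 7 members that reached a mean of 1 FPKM. Sox9 did not reach it. At an unadjusted p under 0.05 there were 1265 genes (7.96%) and 0 members. Rorb was lower in all 3 KO libraries, at 0.803 ± 0.153 FPKM (SD, n = 3) against 1.26 ± 0.0944 in WT (SD, n = 3), with an exact permutation p of 0.1, the smallest possible. Such separation was found in 15.9% of the genes tested, and with KO lower in 7.48%. The limma log2 difference of Rorb was −0.33 (SE 0.29, adjusted p = 0.739). Zbtb20 was at 43.4 FPKM in KO and 29.4 in WT microglia, a log2 difference of 0.64 (SE 0.35, limma adjusted p = 0.662). Rfx4 differed by 1.10 with a 95% interval from −1.75 to 3.95, and by −0.13 without KO microglia 1. Whether the genotype difference itself differed between the cell types was tested in all 13 libraries. Limma called 23 of 16258 genes (0.141%) and 0 of the 8 members. At an unadjusted p under 0.05 there were 1076 genes (6.62%) and 0 members. The lowest value was that of Rfx4, −1.09 (SE 1.21, limma adjusted p = 0.863), followed by Sox2 at −0.85 (SE 0.49, limma adjusted p = 0.796). No member stands in the authors' deposited table of 483 genes for microglia.

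Between P9 and P12 no factor passed the test, although the ages did not overlap for Nfib and Rorb. Of the genes known as targets of the factors, 1 was called. Of 13397 genes, limma called 13 (0.097%) and 0 of the 8 members, with 1154 genes (8.61%) and 0 members at an unadjusted p under 0.05. Their median difference, P12 minus P9, was −0.14, and that of all genes 0.02. Nfib stood at 107 FPKM in KO and 92.1 in WT astrocytes of P9, and at 73.3 to 85.4 FPKM in the 5 libraries of P12. Both P9 libraries were above all P12 libraries, and the log2 difference was −0.35 (SE 0.16, 95% interval −0.72 to 0.02, limma adjusted p = 0.588). Rorb had the reverse order, with 43.0 and 43.5 FPKM at P9 and 44.4 to 65.5 FPKM at P12 (log2 difference 0.23, SE 0.21, limma adjusted p = 0.851). Ages did not overlap in 14.7% of the genes tested, with P12 higher in 8.27% and lower in 6.44%. The other NFI genes of the list had negative values that did not pass, −0.32 for Nfia (SE 0.17, limma adjusted p = 0.695) and −0.29 for Nfix (SE 0.21, limma adjusted p = 0.803). Several marker sums differed with age without overlap, and their part in these values was not tested. Proliferation markers summed to 26.0 and 51.1 FPKM at P9 and to 9.10 to 15.6 at P12. Astrocyte markers summed to 9566 and 10065 FPKM at P9 and to 11405 to 17887 at P12, and neuron markers to 35.1 and 60.8 at P9 and 78.1 to 335 at P12. Microglia markers summed to 36.2 and 48.2 FPKM at P9 and 49.5 to 77.7 at P12, and endothelial and mural markers to 25.6 and 37.8 at P9 and 43.4 to 84.2 at P12.

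**Figure D5:**
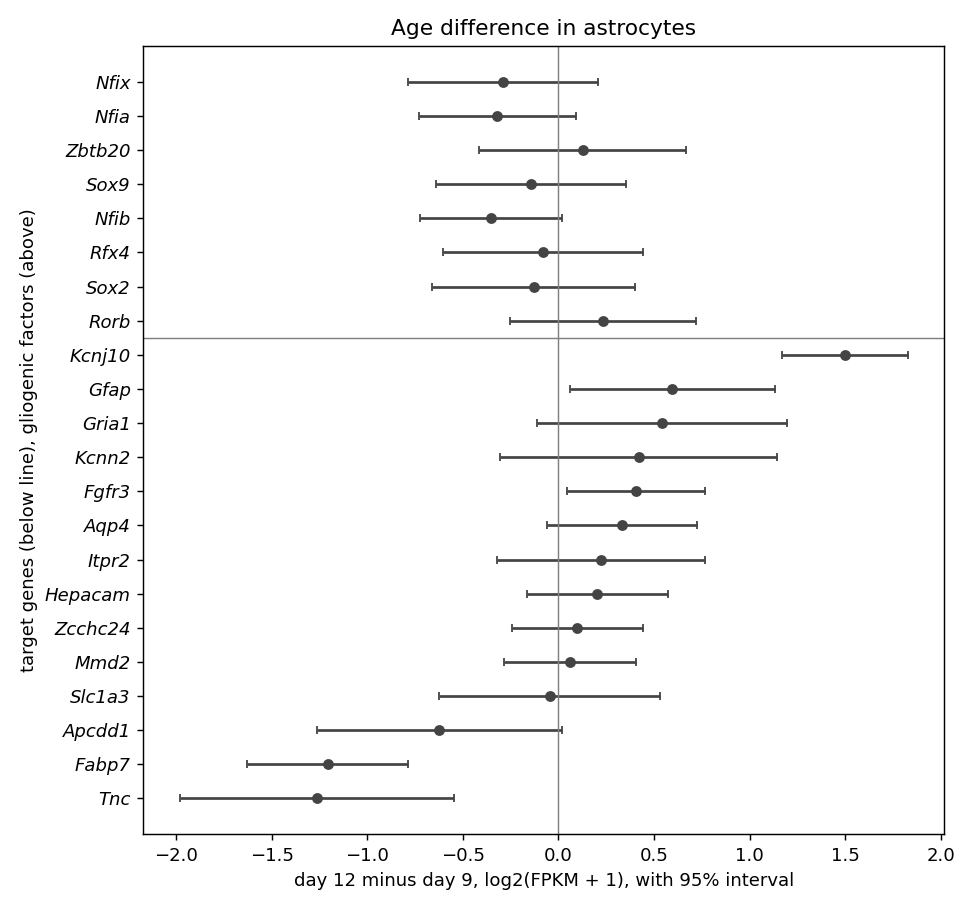
Log2(FPKM + 1) difference, P12 minus P9, in astrocytes (5 and 2 libraries) with 95% intervals from limma, for the 8 expressed factors (above the line) and 14 of the 15 target genes (below, without Slc1a2). All intervals of the factors include 0, from −0.35 for Nfib to 0.23 for Rorb, and Kcnj10 (1.50) and Fabp7 (−1.21) lie far from 0 on opposite sides.

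A list of 15 genes that SOX9 and NFI factors are known to control was read beside the factors. In both genotypes 13 of the 15 were higher in astrocytes than in microglia by limma and 2 did not pass. The median log2 difference was 5.30 in WT and 4.38 in KO. Among all genes tested, 24.5% were called higher in WT astrocytes and 25.1% in KO. Slc1a2 was among the 2 that did not pass. Its listed zeros in KO astrocytes 3 and WT astrocytes 1 were taken as values. Some of the 15, such as Gfap and Aqp4, are also astrocyte markers here. Of the 15, 13 reached a mean of 1 FPKM in microglia alone. The rest entered through their astrocyte values, so the filter set their direction. None of the 15 was called between KO and WT astrocytes, and 0 had an unadjusted p under 0.05. By age, 1 was called, and 5 of the 15 had an unadjusted limma p under 0.05, where the share of all genes was 8.61%. Without overlap of the ages, 5 were higher and 2 lower at P12, where 8.27% and 6.44% of all genes were. Of the astrocyte markers, some of them the same genes, 8 of 12 had an unadjusted limma p under 0.05 by age. The target called was Kcnj10. Kcnj10, the inward rectifier potassium channel gene of astrocytes, was at 482 and 583 FPKM at P9 and rose to 1303 to 1715 FPKM at P12 (log2 difference 1.50, SE 0.14, limma adjusted p = 0.0198). The call rests on few libraries, since limma adjusted p was 0.0557 to 0.0921 when any 1 library was left out and 0.0709 after quantile normalisation, with differences of 1.34 to 1.54. Fabp7, a fatty acid binding protein of radial glia and immature astrocytes and a target of NFI, held 3352 and 3630 FPKM at P9 and 1145 to 1734 at P12 (log2 difference −1.21, SE 0.18, limma adjusted p = 0.108). Its groups did not overlap but it did not pass the test. Aqp4, the water channel gene, was at 1135 and 1132 FPKM at P9 and at 1206 to 1661 FPKM at P12, and Gfap, the astrocyte filament gene, at 197 and 283 FPKM at P9 and 284 to 423 FPKM at P12. Neither was called.

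Another list held 40 further factors of gliogenesis and radial glia. Of 37 tested between cell types, 29 were higher in astrocytes, 3 lower and 5 not called, in each genotype. Among all genes tested, 24.5% were called higher in WT astrocytes and 25.1% in KO. Only 18 factors of this list reached a mean of 1 FPKM in microglia alone. The rest of the 37 entered through their astrocyte values, and their direction was set by the filter. Etv5, an ETS factor downstream of FGF signalling, was the most abundant of the 40 factors. It held 128 to 217 FPKM in astrocytes and 55.0 to 95.9 in microglia. Id3, an inhibitor of basic helix-loop-helix factors, held 109 to 170 FPKM, Sox8, a relative of Sox9, 71.6 to 177 FPKM, and the Notch effector gene Hey1 76.8 to 123 FPKM in astrocytes. Between genotypes 0 of 36 were called in astrocytes. An unadjusted p under 0.05 was found in 2 of the 36, near the share of 4.19% among all 13397 genes tested. These 2 are named by the rule and do not set the list apart. Nkx6-1, a homeodomain factor of the ventral cord, was at 14.5, 20.9, 12.5 and 9.06 FPKM in KO and at 8.18, 6.70 and 9.03 FPKM in WT (log2 difference 0.76, SE 0.27, limma adjusted p = 0.921). Atf3, a stress-induced factor also listed among genes that cell dissociation induces, was at 0.140, 0.0852, 1.11 and 0.364 FPKM in KO and 1.94, 2.07 and 1.45 FPKM in WT (log2 difference −1.06, limma adjusted p = 0.921). In microglia Atf3 stood at 91.8 to 233 FPKM. By age 0 of 36 were called, and 0 had an unadjusted p under 0.05. In the authors' deposited table for microglia 1 gene of this list appears, Pax6, where its normalised counts average 195 (WT) and 54.2 (KO, adjusted p = 0.00245). Of the 15 targets, 2 appear there, Kcnn2 at 159 in WT and 46.2 in KO (adjusted p = 0.00973) and Gfap at 335 and 709 (adjusted p = 0.0409), also in the authors' deposited table. That table lists 483 genes, where 39171 have FPKM. In the limma fit of microglia FPKM, 0 of 18 tested factors (smallest adjusted p 0.522) and 0 of 13 tested targets (smallest 0.596) were called. Gfap held 11.8, 5.18 and 6.84 FPKM in KO and 4.93, 8.53 and 3.89 in WT microglia, with overlap. Pax6 and Kcnn2 were lower in KO without overlap. Such separation was found in 15.9% of the genes tested in microglia, and with KO lower in 7.48%. Of the 18 tested factors, 4 were lower and 1 higher in KO in this way. Of the 13 tested targets, 1 was lower and 2 were higher.

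The 8 expressed members did not vary as 1 block over the astrocyte libraries. Of the 28 pairs, 16 had a positive Pearson correlation of log2(FPKM + 1) over the 7 libraries, with a median of 0.0659. The highest was 0.82 for Nfia with Sox9, followed by 0.70 for Nfia with Nfib. The lowest was −0.86 for Zbtb20 with Sox2, the pair with the largest genotype differences of opposite sign. These correlations are descriptive, since the 7 points share 2 genotypes, 2 ages and, by the rough estimate, a different depth each.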

How the data were processed

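Per the labels' protocols, NuGEN RNA-Seq V2 libraries were made from the total RNA of sorted cells, after TRIZOL extraction, DNase digestion and column purification. The submitters' processing notes name Bowtie2 2.2.3 and TopHat2 2.0.11, Cufflinks with Cuffnorm, HTSeq 0.6.1p1, FastQC and DESeq2, and build GRCm38, without settings. The authors deposited FPKM for 39171 genes in 13 libraries. They also deposited, per the file headers, a table for each cell type with a normalised signal (mean normalised counts) per genotype, a log2 fold change, and a p-value with its adjusted p. Absolute depth is unknown, and relative depth was read from the steps between low FPKM.

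Log2(FPKM + 1) values were fitted in limma 3.58.1 (R 4.3.3, lmFit and trended eBayes, two-sided). Genes averaging at least 1 FPKM over the fitted libraries entered, and a call needed a Benjamini-Hochberg adjusted p under 0.05 over all genes. Astrocytes (4 KO, 3 WT) and microglia (3 KO, 3 WT) were fitted alone for genotype, with age as a covariate in astrocytes. Cell types and the interaction were fitted over all 13 libraries with age. Single members were also tested on FPKM by exact permutation (17 tests). The scripts were tested on simulated data. Of the identifiers, 37605 (96.0%) were found in GENCODE M21, which gave coordinates, and promoters came from RefSeq on GRCm38.p6.

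The 10 members, the lists of other gliogenic factors, targets and cell markers, the tests and the alternatives were chosen with earlier results of these data known. Apart from the members, genes were named by a rule. It took up to 4 called genes per list and direction, or the 2 with the smallest p between genotypes where none was called, and the most abundant genes of a list. Other named genes (Emx2, Nfic, Gfap, Aldh1l1, Slc1a3, Pax6, Kcnn2, Hes5, Flt1) were chosen after their values were seen. Some genes that the rule takes are not reported here. Ependymal, endothelial, proliferation and dissociation lists were read as well. In KO against WT astrocytes limma called 0 tested genes of each of these lists, with 3 of 6 endothelial and mural genes at an unadjusted p under 0.05. By age it called 1 endothelial or mural gene (Rgs5, log2 difference 2.06, adjusted p = 0.0245). Of the 8 ependymal markers, 2 were at 0 in every astrocyte library.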

Additional observations from a re-analysis of the deposited data

Results flagged for a closer look

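Within the 4 KO astrocyte libraries, 45 genes named by rule were checked for 1 library far from the others, and 5 had a ratio above the critical value. The measure is the gap to the nearest library divided by the range of the group, compared with Dixon's 95% critical value for 4 values, which chance alone passes in about 1 group in 20. KO astrocytes 2, the P9 library of that group, was the library apart in each case. The ratio was 1 for Lhx2 and 1 for Fezf2, with 0.0149 and 0.133 FPKM in KO astrocytes 2. Their other KO libraries were at 0, so the ratio is 1 for any value above 0 in the last library and says nothing beyond that, which leaves 3 genes whose ratio was free to vary. It was 0.900 for the glycolytic gene Aldoc (2194 FPKM, against 3036 to 3129 in the others). It was 0.888 for the pericyte gene Rgs5 (6.47 FPKM, against 27.4 to 30.04) and 0.889 for the proliferation gene Mki67 (9.43 FPKM, against 0.959 to 1.90). WT astrocytes 3, the other P9 library, held 2405 FPKM of Aldoc, 5.53 of Rgs5 and 5.93 of Mki67. None of the 8 expressed members had a library apart by this measure.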

How the results depend on the processing

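The 8 members stayed higher in astrocytes than in microglia, and called, in both genotypes under every setting run, and no member was called for genotype or age under any. The counts over all genes were less stable. KO against WT astrocytes went from 3 called genes to 5 with a pseudocount of 0.1, to 1 among protein-coding genes and to 0 without the filter, with P12 libraries only or with a replicate block. P12 against P9 went from 13 to 7 with that pseudocount, 35 without the filter, 22 with array weights and 7 among protein-coding genes. KO against WT microglia went from 13 to 25, to 7 without the filter and to 3 with a replicate block. The interaction went from 23 to 37 without the filter and to 2 among protein-coding genes. Leaving out 1 library gave 0 to 8, 6 to 82, 18 to 48 and 15 to 75 in that order, 7965 to 8722 for the cell types in WT and 7973 to 9542 in KO. Members with groups that do not overlap numbered 1 to 2 in astrocytes (2 without KO astrocytes 2 or without WT astrocytes 1) and 0 to 2 in microglia (0 without WT microglia 2, 2 without KO microglia 1 or 3). Without KO astrocytes 2 or WT astrocytes 3, P9 has 1 library, which is then assumed to vary like the others, and the P12 against P9 counts were 62 and 82. Same-numbered libraries correlated by −0.0791 to 0.0277 in their deviations, so the numbers were not taken to pair them.

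Differences changed sign in 65 cases, 45 of them with a library left out, and 0 of these had an adjusted p under 0.05. In KO against WT astrocytes the reversed values were 0.056 (array weights), 0.0057 (quantile) and 0.0061 (replicate block) for Nfia, 0.033 (quantile) and 0.0070 (block) for Nfix, 0.080 (weights) for Sox9, and −0.053 (weights) and −0.021 (block) for Rfx4. They were also 0.11 (weights) for Sox8, −0.088 (weights) and −0.027 (block) for Hey1, and −0.013 (block) for Aqp4. Nfix in microglia gave 0.014 (quantile). In the interaction, Nfix gave 0.12 (weights), 0.065 (median of ratios) and 0.0063 (quantile), and Sox9 0.24, 0.050 and 0.068, with 0.093 at the pseudocount of 0.1. With libraries left out, KO against WT astrocytes ranged from −0.13 to 0.12 for Nfia, −0.16 to 0.071 for Nfix, −0.18 to 0.15 for Sox9, −0.077 to 0.22 for Rfx4, −0.27 to 0.042 for Rorb, −0.12 to 0.15 for Aqp4, −0.18 to 0.23 for Etv5, −0.20 to 0.17 for Hey1 and −0.50 to 0.27 for Sox8. P12 against P9 ranged from −0.37 to 0.11 for Sox9, −0.31 to 0.076 for Sox2, −0.46 to 0.26 for Rfx4, −0.025 to 0.29 for Zbtb20, −0.21 to 0.51 for Etv5, −0.040 to 0.48 for Hey1 and −0.42 to 0.097 for Sox8. In microglia the ranges were −0.11 to 0.13 for Nfix and −0.13 to 1.97 for Rfx4. In the interaction they were −0.18 to 0.085 for Nfix, −0.17 to 0.18 for Sox9, −1.96 to 0.14 for Rfx4 and −0.45 to 0.21 for Zbtb20. The cause of these changes was not tested. Depth is unknown in absolute terms. Values near 0 in the astrocyte libraries, shallower by the rough estimate, are the least certain.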
